A study of Mus musculus with 12 samples.

Results

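Slurp1 and 8 relatives of the Ly6/uPAR family (Ly6a, Ly6c1, Ly6c2, Ly6d, Ly6e, Ly6g6c, Lypd3 and Plaur) were followed through lung-seeded mammary carcinoma cells. They were taken by gene name and make up 9 of the 54146 genes in the expression table. Proteins of this family are built on the LU domain, a small fold of finger-like loops held by disulfide bonds between cysteines. Most members are tethered to the outer membrane by a lipid anchor (GPI), whereas Slurp1 is secreted. Plaur encodes uPAR, the receptor that holds the protease urokinase (uPA) at the cell surface and touches integrins and the matrix, and several Ly6 genes, Ly6a and Ly6e among them, are known to respond to interferons.

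D2A1 is a carcinoma line of the mouse mammary gland. Its cells had been injected into the tail vein and sorted from the lung in the second week, and RNA of 12 such samples was sequenced. The tumour cells carried green fluorescent protein and had been stained with a membrane dye that is diluted by division, so that cells that kept the dye were called dormant and cells that had lost it were called growing. The 6 dormant and 6 growing libraries were each split into 3 from WT hosts and 3 from Tgfbr2 KO hosts, giving 4 groups of 3 that are called here dormant WT and KO and growing WT and KO. The KO hosts lacked Tgfbr2, through which cells sense TGF-β, in the cells that express a Cre under the Lysozyme 2 promoter, which is active in myeloid cells, and the methods describe floxed mice as the controls. The tumour cells of all groups were the same line without an engineered deletion, so the Tgfbr2 level of a library is no check on its label. An age of the hosts is not given in the labels. Every WT library carries library batch 1 in its column name and every KO library carries batch 2, so host and batch cannot be told apart in anything below. The labels do not say that replicates came from separate mice, although the paper's legends count mice, and p-values measure the spread between these libraries.

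Values are TPM, a level per transcript length that is scaled to the same total in each library, so levels can be set side by side between genes. The read depth behind a TPM is unknown. The dormant libraries stood apart from the growing ones. Of 1843 genes at or above 50 TPM in each growing library, between 19 and 67 were listed at 0 in a dormant WT library and 1 or 2 in a dormant KO library, so a 0 in the dormant WT group is given only as listed. Replicates correlated across genes at 0.666 to 0.715 in dormant WT, 0.866 to 0.882 in dormant KO, 0.914 to 0.922 in growing KO and 0.949 to 0.952 in growing WT. The summed level of 8 genes listed for the mammary carcinoma line was 2112 to 2665 TPM in the dormant KO libraries and 30496 to 41314 TPM in the other 9. In those 9 nearly all of the sum was Spp1 (osteopontin), at 28980 to 39951 TPM. In dormant KO Spp1 was a smaller part of it, at 1236 to 1509 TPM. Without Spp1 the other 7 genes summed to 876 to 1157 TPM in dormant KO, 969 to 1362 TPM in dormant WT and 1305 to 1754 TPM in growing libraries. The overlap between the dormant groups rests on Krt19, which is also a mesothelium marker, since the 6 genes without it summed to 608 to 738 TPM in dormant KO and 969 to 1361 TPM in dormant WT. Both splits were made after the values were seen. Among these 7, Krt8 fell in dormant KO against dormant WT, Krt19 rose, and Krt18, Cdh1, Vim and Cd44 were not called. Epcam would not have reached 1 TPM in 3 libraries, as a test required, without the dormant KO group. Nothing is therefore read from its call. Its dormant KO levels were low (3.42, 0.27 and 5.34 TPM), and no other library exceeded 1.12 TPM. A list of 10 alveolar type 2 genes summed to 40207 to 42496 TPM in dormant KO, against 77.5 to 141 TPM in dormant WT, 55.9 to 97.6 TPM in growing WT and 465 to 472 TPM in growing KO, most of it Sftpc (36571 to 39284 TPM in dormant KO). The erythroid list of 8 genes summed to 50865 to 56280 TPM in dormant KO, 8988 to 13031 TPM in dormant WT and 6206 to 7797 TPM in growing libraries. The libraries labelled dormant KO were thus low in Spp1 and high in alveolar type 2 and erythroid genes, and the part of this in the results below was not tested.

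The coding sequences show what the members share and where Slurp1 differs. In GENCODE M21, on build GRCm38, all 9 gene IDs of the table were found. A search of each principal coding sequence for paired cysteine codons, 4 further codons and then a cysteine and an asparagine codon gave 2 matches in Plaur and 1 in each other member. This ending of the LU fold is shown for the members with a measurable level, with the cysteine and asparagine codons in capitals and the 4 codons between them in lower case:

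Slurp1: TGTTGCttccgtgacctcTGCAAC
Ly6a: TGTTGCcaggaagacctcTGCAAT
Ly6c1: TGTTGCagcgaagacctcTGCAAT
Ly6c2: TGTTGCagcgaagacctcTGCAAT
Ly6d: TGCTGCcagactgacctaTGCAAC
Ly6e: TGCTGCcaaagctccttcTGCAAC
Plaur: TGTTGCaactacacccacTGCAAT
Plaur: TGCTGCcacggcagcggcTGTAAC

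In Slurp1 the match lies at chr15:74726841-74726864 on the minus strand and 10 codons follow it before the stop. The match is followed by 29 codons in Ly6a, Ly6c1 and Ly6c2, by 34 in Ly6d, by 31 in Ly6e and by 33 after the later match of Plaur. In GPI-anchored proteins a hydrophobic tail of this kind is exchanged for the anchor. The end of the Slurp1 coding sequence, from codon 22 to the stop at codon 111, is printed with its 10 cysteine codons in capitals, since the gene is the one the study followed:

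Slurp1: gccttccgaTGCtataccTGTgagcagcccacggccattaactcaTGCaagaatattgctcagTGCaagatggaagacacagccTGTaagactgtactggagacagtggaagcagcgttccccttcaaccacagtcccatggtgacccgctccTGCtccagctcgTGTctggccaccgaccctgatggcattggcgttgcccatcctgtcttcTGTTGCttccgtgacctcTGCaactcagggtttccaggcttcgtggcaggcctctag

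Ly6c1 and Ly6c2 are close copies. Their coding sequences align over 396 bases with 9 differences, an identity of 97.7%, compared with 82.0% between Ly6a and Ly6c1. The stretch below, coding bases 1 to 120, holds 6 of the 9 differing bases, which are in capitals:

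Ly6c1: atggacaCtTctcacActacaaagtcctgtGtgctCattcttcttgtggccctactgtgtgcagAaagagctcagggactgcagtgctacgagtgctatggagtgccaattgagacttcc
Ly6c2: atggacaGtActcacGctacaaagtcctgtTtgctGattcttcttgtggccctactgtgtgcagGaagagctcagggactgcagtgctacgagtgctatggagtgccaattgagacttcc

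RSEM shares reads between such copies by an estimate, so the split between Ly6c1 and Ly6c2 is uncertain. Where either was above 0, Ly6c2 took 13.2% to 15.4% of their summed TPM in dormant KO, 11.4% to 19.2% in growing WT and 11.6% to 17.2% in growing KO, and it was listed at 0 in the dormant WT libraries that held Ly6c1.

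Slurp1, which encodes a secreted LU protein known from skin and other epithelia, lies at chr15:74724318-74728034 on the minus strand and was almost confined to KO hosts. It was listed at 0 in all 3 dormant WT libraries. In the dormant KO libraries it stood at 666, 742 and 799 TPM, a mean of 736 ± 67 (SD, n = 3) and the 229th highest mean level in that group. Growing WT libraries held 0.09, 0 and 0 TPM. In growing KO the level was 6.62, 5.79 and 5.42 TPM, a mean of 5.94 ± 0.61 (SD, n = 3). The groups of KO hosts thus overlapped neither each other nor the WT groups, and the growing KO mean was 0.81% of the dormant KO mean. The study followed Slurp1 for its level in these cells, so its levels are given as a description with no test. Them6 overlaps Slurp1 on the opposite strand, and its mean was at most 0.05 TPM in any group. In bulk RNA, fewer cells that express a gene and less of its RNA per cell cannot be told apart.

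**Figure D1:**
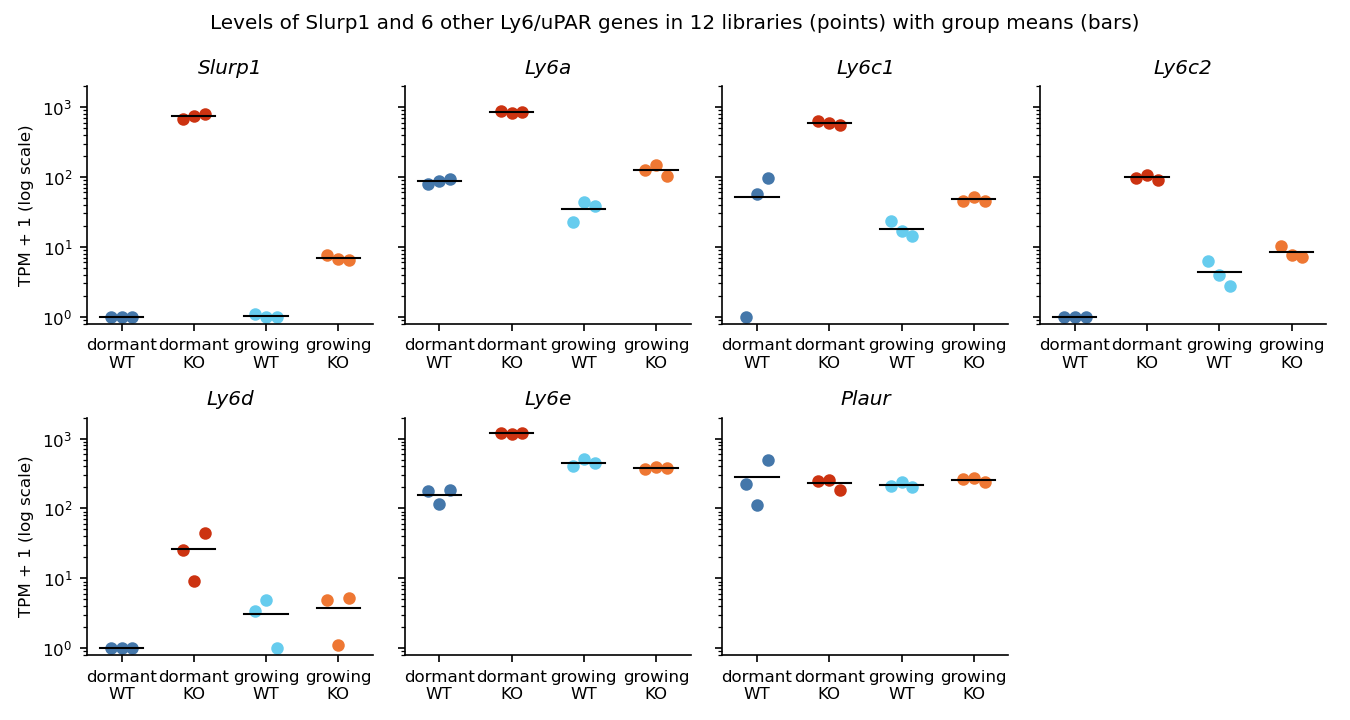
TPM + 1 on a log axis for Slurp1 and the 6 other members that passed the filter, with 3 libraries (points) and their mean (bar) in each of the 4 groups. The 3 dormant KO libraries lie above all others for each gene except Plaur, whose 4 groups overlap between 112 and 497 TPM.

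The other members were compared between groups with limma on log2(TPM + 1), and a gene was called where the difference reached 1 on that scale with an adjusted p (Benjamini-Hochberg over all genes tested) of 0.05 or less. Of the 8, 6 reached 1 TPM in 3 or more libraries and were tested. Lypd3 (chr7:24636550-24641118), a GPI-anchored LU protein of squamous epithelia, was listed at 0 in all 12 libraries. Ly6g6c (chr17:35065388-35070050) was at 5.83 TPM in dormant KO replicate 1 and at 0 in the other 11. Neither was tested. All 9 members together made up 0.366% to 0.375% of all TPM in a dormant KO library and 0.0367% to 0.0874% in the other libraries.

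Between dormant cells of KO and WT hosts, 5 of the 6 tested members rose and none fell, whereas 12.9% of the 13002 genes tested were called higher and 9.39% lower. The median difference of the 6 was 3.86 log2, and that of all genes tested 0.17. Each of the 6 also reached the filter without the dormant KO libraries.

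Ly6a encodes Sca-1, a GPI-anchored protein used to mark stem and progenitor cells, and lies at chr15:74994877-74998031 on the minus strand. Its level was 79.2, 86.2 and 91.6 TPM in dormant WT and 877, 812 and 844 TPM in dormant KO, a difference of 3.29 ± 0.27 log2 (SE; limma adjusted p = 8.02e-06). In growing cells the level was 21.7, 42.4 and 37.3 TPM in WT hosts and 125, 148 and 102 TPM in KO hosts. Ly6a was thus higher in KO than in WT hosts in either state, with no overlap between hosts.

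Ly6e, at chr15:74955051-74959905 on the plus strand, encodes a broadly expressed GPI-anchored protein known to affect virus entry. It had the highest mean of the members in each group except dormant WT, where Plaur was higher, with 175, 114 and 181 TPM in dormant WT and 1217, 1146 and 1201 TPM in dormant KO. That difference was 2.95 ± 0.18 log2 (SE; limma adjusted p = 1.05e-06). Growing libraries lay between the dormant groups, at 409, 504 and 446 TPM in WT hosts and 362, 392 and 378 TPM in KO hosts.

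Ly6c1 and Ly6c2 encode the Ly6C antigens, known from monocytes, endothelium and some T cells. Ly6c1 (chr15:75044018-75048830, minus strand) was listed at 0 in dormant WT replicate 1 and stood at 55.8 and 94.7 TPM in the other dormant WT libraries, against 622, 587 and 546 TPM in dormant KO. The difference of 5.06 ± 1.27 log2 (SE; limma adjusted p = 0.0124) was 2.99 without dormant WT replicate 1. It was not called when the fit held only the dormant groups (adjusted p = 0.132, the highest over 15 alternatives, the lowest being 9.40e-05). In growing cells Ly6c1 was at 22.4, 15.9 and 13.4 TPM in WT hosts and 44.3, 51.1 and 44.98 TPM in KO hosts. Ly6c2 (chr15:75108158-75111970, minus strand) was listed at 0 in all dormant WT libraries, whereas dormant KO held 94.7, 107 and 90.2 TPM (limma adjusted p = 3.07e-06). In growing cells Ly6c2 was at 5.33, 3.02 and 1.72 TPM in WT hosts and 9.18, 6.70 and 6.15 TPM in KO hosts.

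Ly6d, a GPI-anchored protein of keratinocytes and of early B-lineage cells, lies at chr15:74762056-74763620 on the minus strand. It was listed at 0 in the 3 dormant WT libraries, whereas dormant KO held 24.2, 8.22 and 43.1 TPM (limma adjusted p = 0.00206). Array weights took away this call (adjusted p = 0.0754, the highest over 15 alternatives, the lowest being 0.000979). Growing cells held 2.37, 3.94 and 0 TPM in WT hosts and 3.83, 0.11 and 4.21 TPM in KO hosts, so the growing groups overlapped.

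Plaur, at chr7:24462484-24475968 on the plus strand, was the exception among the tested members. Dormant WT libraries held 220, 112 and 497 TPM and dormant KO libraries 244, 255 and 186 TPM. The growing libraries lay at 205, 239 and 202 TPM in WT hosts and at 261, 270 and 237 TPM in KO hosts. The dormant difference was -0.03 ± 0.41 log2 (SE; limma adjusted p = 0.979), its sign turned with the scaling and without dormant WT replicate 3 or dormant KO replicate 3, and no comparison called the gene.

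Between growing cells of KO and WT hosts, Ly6a rose and the other 5 tested members were not called, while 0.715% of genes tested were called higher and 0.261% lower. The Ly6a difference was 1.90 ± 0.27 log2 (SE; limma adjusted p = 0.00538). Ly6c1 differed by 1.42 ± 1.27 (adjusted p = 1) and Ly6c2 by 1.01 ± 0.48 (adjusted p = 0.718), although the 3 libraries of each host did not overlap for either. When the fit held only the growing groups, which are more even, Ly6c1 was called as well (adjusted p = 0.0301, and up to 1 in the other alternatives). Ly6e was lower by 0.26 ± 0.18 in KO hosts, which was not called.

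Between dormant and growing cells of KO hosts, 4 of the 6 rose, against 8.31% of all genes called higher and 9.48% lower. Ly6a was higher in dormant cells by 2.76 ± 0.27 log2, Ly6e by 1.65 ± 0.18, Ly6c2 by 3.57 ± 0.48 and Ly6d by 2.84 ± 0.82 (SE; limma adjusted p = 4.61e-05, 8.92e-05, 0.000347 and 0.0311). Ly6c1 was higher by 3.62 ± 1.27 with an adjusted p of 0.0699, which ran from 4.58e-05, with only these groups fitted, to 0.257 over 15 alternatives, 5 of which called it. The Ly6d call was lost in 6 of 15 alternatives (adjusted p from 0.0127 to 0.133), among them without dormant KO replicate 1, without dormant KO replicate 3 and without growing KO replicate 2.

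In WT hosts the family did not move in 1 direction with dormancy. Ly6a rose in dormant cells by 1.37 ± 0.27 log2 (SE; limma adjusted p = 0.0110), and Ly6e fell by 1.55 ± 0.18 (adjusted p = 0.000445). Ly6c2, listed at 0 in dormant WT and at 1.72 to 5.33 TPM in growing WT, was called lower in dormant WT (limma adjusted p = 0.0241). Its split from Ly6c1 is uncertain, so this call is weak ground for a fall. Thus 1 member was called higher and 2 lower, where 1.85% and 5.67% of all genes were. The call for Ly6a was lost in 2 of 15 alternatives (adjusted p from 0.00738 to 0.166). That for Ly6c2 was lost in 5 of 15 (0.0007 to 0.198), among them without growing WT replicate 1 and without growing WT replicate 2. Ly6c1 was not called, but without dormant WT replicate 1 it was higher in dormant WT by 2.04 log2 (adjusted p = 0.00186, and up to 1 in the other alternatives).

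The dormant against growing difference was then compared between hosts by the interaction, which subtracts the difference seen in WT hosts from the one seen in KO hosts. It was called above 0 for 4 of the 6 tested members, with 6.18% of all genes called in this direction and 3.91% in the other. For Ly6e it was 3.20 ± 0.25 log2 (SE; limma adjusted p = 3.09e-05), the gene being lower in dormant cells of WT hosts and higher in dormant cells of KO hosts. The Ly6c2 interaction was called too (adjusted p = 0.000551). For Ly6a it was 1.39 ± 0.38 (adjusted p = 0.0412) and for Ly6d the adjusted p was 0.0413. The calls for Ly6a and Ly6d were near the threshold and were lost in 10 and 13 of 20 alternatives. The count of 4 fell to 2 without dormant KO replicate 1 or 3, without growing WT replicate 2 and without any 1 of the growing KO libraries. Ly6c1 and Plaur were not called (adjusted p = 0.258 and 0.842).

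**Figure D2:**
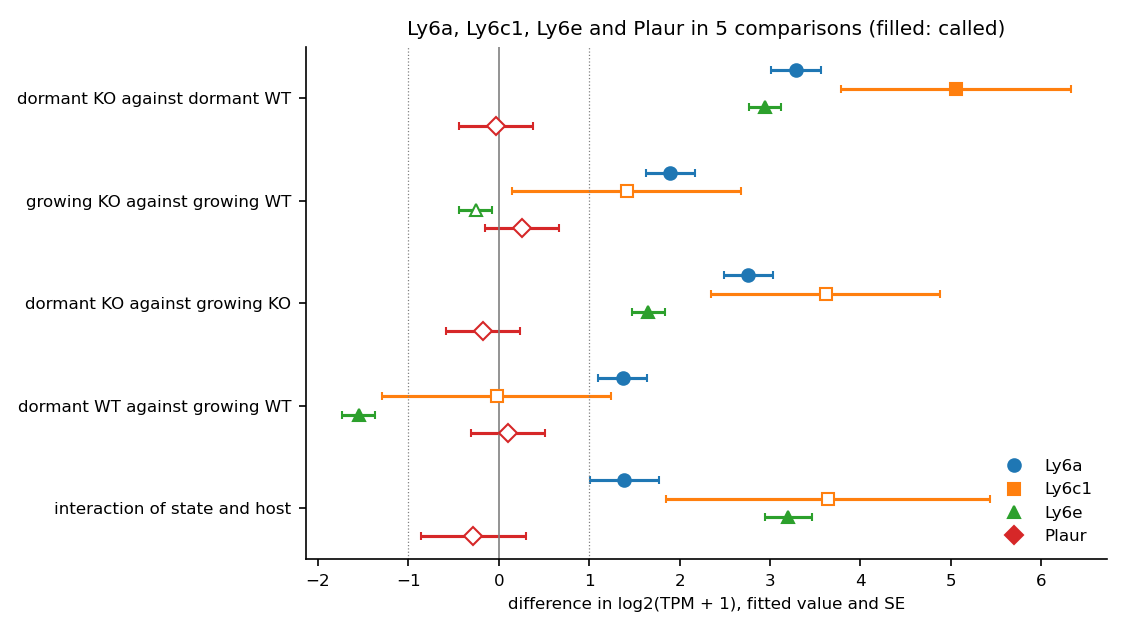
Fitted differences in log2(TPM + 1) with their SE (horizontal axis) for Ly6a, Ly6c1, Ly6e and Plaur in the 5 comparisons, filled where called, with dotted lines at a difference of 1. Ly6a and Ly6e have narrow errors, Ly6c1 a wide one set by the library listed at 0, and Plaur lies near 0 in each comparison.

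Slurp1 and 5 of the tested members stand in the Ly6 cluster of chromosome 15, where 884.6 kb from Psca to Gpihbp1 hold 23 listed Ly6/uPAR genes. Of these, 9 were tested and 8 were at 0 in every library. Lypd2, which encodes another small LU protein, is the nearest family member upstream of Slurp1 and begins 6.3 kb from its start. It was at 133, 86.6 and 77.6 TPM in dormant KO, at 0.13 TPM in growing WT replicate 3 and at 0 in the other 8 libraries. It reached the filter through the dormant KO libraries alone, so nothing is read from a test of it. Unlike Slurp1, Lypd2 was thus listed at 0 in growing KO. Slurp2, Ly6h, Ly6f and Psca, in the same cluster, were at 0 throughout. Ly6k was at 65.1 TPM in dormant WT replicate 2 and 4.96 TPM in dormant KO replicate 3, Ly6i at 6.81 TPM in dormant WT replicate 3 and 1.31 TPM in growing WT replicate 2, and Gml at 12.2 TPM in dormant WT replicate 3, each with 0 elsewhere. Ly6g was at 12.09 TPM in dormant KO replicate 2 and at most 0.16 TPM elsewhere. Genes high in dormant KO thus alternated along the cluster with genes at 0 or seen in few libraries.

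**Figure D3:**
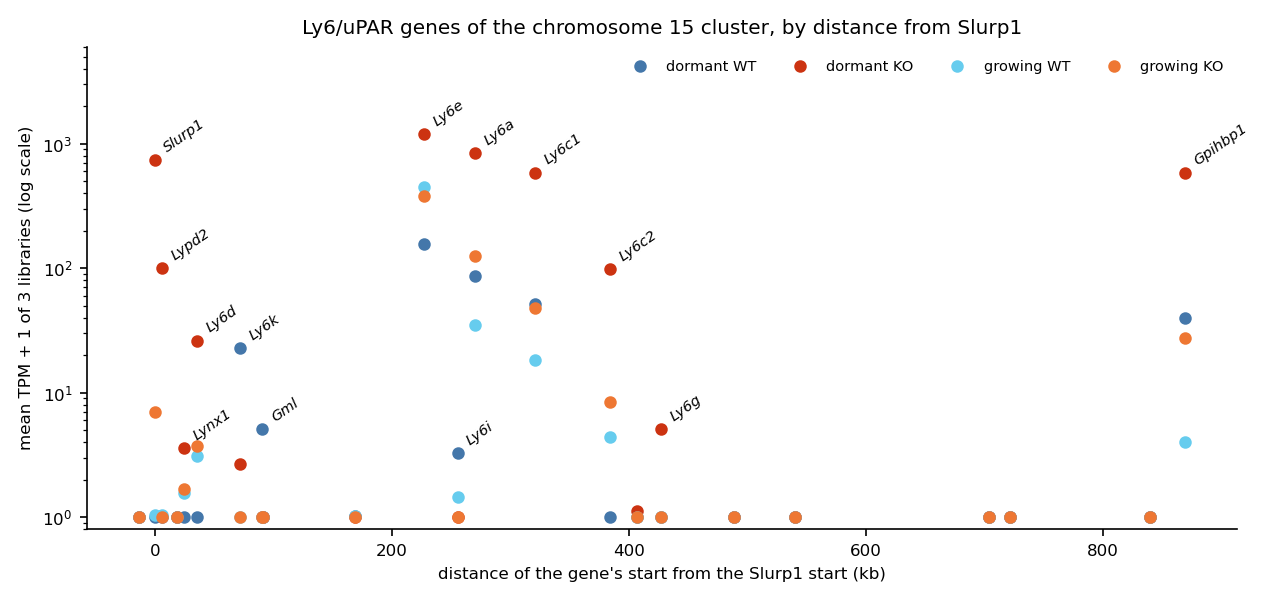
Mean TPM + 1 of 3 libraries on a log axis for 23 Ly6/uPAR genes of the chromosome 15 cluster, against the distance in kb of each gene's start from that of Slurp1, with 1 colour for each group. Dormant KO has the highest of the 4 group means at each of the 9 tested genes (Slurp1, Lypd2, Lynx1, Ly6d, Ly6e, Ly6a, Ly6c1, Ly6c2 and Gpihbp1). Slurp1 was followed for its level in these cells, and Lypd2 and Lynx1 reached the filter only with the dormant KO libraries. Nothing is therefore read from this count. Of the other genes, Ly6k, Gml and Ly6i are highest in dormant WT and Ly6g in dormant KO through single libraries.

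Of a wider list of 44 Ly6/uPAR genes other than the members, 32 were in the table and 6 were tested. In dormant KO against dormant WT 5 of the 6 were called higher (12.9% of all genes). However, Lypd2, Lypd8, Cd59b and Lynx1 would not have reached the filter without the dormant KO libraries. Nothing is therefore read from this count, and these 4 are described here by their levels. Gpihbp1, the LU protein that carries lipoprotein lipase across capillary endothelium, had levels of 0, 116 and 0 TPM in dormant WT and of 659, 500 and 583 TPM in dormant KO. Its difference of 6.89 ± 1.498 log2 (SE; limma adjusted p = 0.00570) was not called when only the dormant groups were fitted (adjusted p = 0.0760, the highest over 15 alternatives, the lowest being 1.07e-05). Lypd8, known from the gut epithelium, was listed at 0 in dormant WT, whereas dormant KO held 24.6, 15.7 and 39.2 TPM. Cd59b, an inhibitor of the complement attack complex, reached 13.03, 10.9 and 38.1 TPM in dormant KO but no more than 1.33 TPM in any other library. Lynx1, known as a modulator of nicotinic receptors, was low, with 0.69, 4.22 and 2.79 TPM in dormant KO and at most 1.22 TPM elsewhere. The remaining gene, Cd59a, was not called between dormant groups (adjusted p = 0.170). No gene of this list was called between growing groups or between the states in WT hosts.

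The partners of uPAR were read from a list of 21 genes of the uPA system and its integrins, of which 15 were tested. In dormant KO against dormant WT, 3 of the 15 fell, where 9.39% of all genes were called lower. The 1 gene called higher was Serpine2, which would not have reached the filter without the dormant KO libraries and is described by its levels. Fn1, which encodes the matrix protein fibronectin, had levels of 297, 368 and 304 TPM in dormant WT and of 22.1, 24.5 and 22.7 TPM in dormant KO, and fell by 3.75 ± 0.26 log2 (SE; limma adjusted p = 2.33e-06). The growing libraries held 62.9 to 78.4 TPM of Fn1 in WT hosts and 45.6 to 65.3 TPM in KO hosts. Fn1 thus rose with dormancy in WT hosts by 2.16 ± 0.26 (adjusted p = 0.000562) and fell with it in KO hosts by 1.21 ± 0.26 (adjusted p = 0.00668), the latter call being lost in 2 of 15 alternatives (adjusted p from 0.00124 to 0.139).

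Itgb1, the beta chain of fibronectin receptors, had levels of 232, 148 and 104 TPM in dormant WT and of 50.3, 42.2 and 50.6 TPM in dormant KO and fell by 1.66 ± 0.30 log2 (SE; limma adjusted p = 0.00174). Itgb5, a partner of the integrin alpha v chain, fell by 2.60 ± 0.49 (adjusted p = 0.00239), from 39.2 to 42.5 TPM down to 3.13 to 13.4 TPM. The Itgb5 call was lost with array weights (limma adjusted p = 0.0501, the highest over 15 alternatives, the lowest being 0.000624). Serpine2, an inhibitor of serine proteases including urokinase, was listed at 0 in dormant WT, whereas dormant KO held 6.8, 5.29 and 15.2 TPM. Plat, the tissue-type activator of plasminogen, fell by 2.64 ± 0.85 between growing and dormant cells of KO hosts (adjusted p = 0.0494), a call lost in 10 of 15 other settings. Plau, which encodes urokinase, was not called between dormant groups (limma adjusted p = 0.888). It had levels of 0.24, 0.36 and 33.8 TPM in dormant WT and of 2.26, 3.74 and 0.97 TPM in dormant KO. No gene of the 21 was called between growing groups. Nicotinic acetylcholine receptor subunits, the receptors that several secreted LU proteins bind, were mostly below the filter, with 2 of 13 tested and neither called in any comparison.

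The study also examined interferon gamma and the transcription factor Klf4, and of 7 listed genes of that axis none was called between dormant groups by limma. Klf4 had levels of 21.6, 21.6 and 4.8 TPM in dormant WT and of 21.9, 30.2 and 35.4 TPM in dormant KO, which did not overlap, a difference of 1.04 ± 0.58 log2 (SE; limma adjusted p = 0.232). The difference ran from 0.39 to 1.53 over 15 alternatives, none of which called it. Klf4 had levels of 8.12, 9.01 and 7.83 TPM in growing WT and of 8.52, 10.2 and 4.81 TPM in growing KO. Dormant KO therefore exceeded growing KO in Klf4 without overlap, by 1.80 ± 0.58 (adjusted p = 0.0518, and 0.00680 to 0.169 over 15 alternatives, 6 of which called it). Klf2, a related factor of endothelium and quiescent lymphocytes, had levels of 18.7, 32.8 and 41.8 TPM in dormant WT and of 80.4, 64.0 and 62.1 TPM in dormant KO. These did not overlap, and the difference of 1.182 ± 0.41 log2 was just short of a call (limma adjusted p = 0.0597, and 0.0124 to 0.197 over 15 alternatives, 6 of which called it). Against growing KO, Klf2 rose by 2.43 ± 0.41 (adjusted p = 0.00158). Ifngr1 and Ifngr2, the chains of the interferon gamma receptor, were not called in either of these comparisons (adjusted p from 0.248 to 0.474). Among 34 tested interferon response genes, 4 rose and 2 fell between dormant groups, with a median difference of 0.12 log2, while 12.9% of all genes were called higher and 9.39% lower. Between dormant and growing cells of KO hosts, 6 of the 34 fell and none rose, where 9.48% of all genes were called lower and 8.31% higher.

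The genes most like each member were found by the Pearson correlation of log2(TPM + 1) over the 12 libraries, which is given as a description and in which the 3 dormant KO libraries weigh heavily. Closest to Slurp1 were Aldh1a2 (r = 0.997), Ripply3, Igfbp7, Lgals2, Sbsn, Sftpc, Fgfbp1, Cldn15, Emcn and Cd200 (r = 0.989). Aldh1a2, an enzyme of retinoic acid synthesis, had levels of 146, 167 and 146 TPM in dormant KO, 2.31, 3.71 and 1.62 TPM in growing KO and at most 0.11 TPM in WT hosts. Over these 10 genes the growing KO mean was 1.08% to 6.64% of the dormant KO mean, which sets the 0.81% of Slurp1 just below the lowest of them, Sftpc. Among the members, Slurp1 correlated at 0.947 with Ly6a and with Ly6c2, at 0.847 with Ly6d, 0.841 with Ly6e, 0.813 with Ly6c1 and 0.009 with Plaur.

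The other members had other nearest genes. They were Tmem176b, Sepp1 and Sftpc for Ly6a (r of 0.961 to 0.977), Ramp2, S100a16 and Crip2 for Ly6c1 (0.939 to 0.952), Tspan8, Slpi and Ogn for Ly6c2 (0.985 to 0.991), and Guk1, RP23-354L15.1 and Cox6b1 for Ly6e (0.975 to 0.981). Ly6d was nearest to RP24-257C17.2, Atp5e and Tmem88 (0.934 to 0.939). Plaur was nearest to Tmem194, Clint1 and Usp10 (0.904 to 0.946), which like Plaur were highest in dormant WT replicate 3 and lowest in dormant WT replicate 2.

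Summed levels of most lung cell lists were highest in dormant KO, as were Slurp1 and the tested members other than Plaur. A marker is given as at 0 in a group where all 3 libraries list it at 0. Of 15 mesothelium genes none was at 0 in dormant KO, and they summed to 2105 to 2794 TPM. In dormant WT 8 of the 15, including Upk3b, Upk1b, Wt1 and Gpm6a, were at 0 and the sum was 322 to 561 TPM, most of it from Krt8 and Krt18, keratins that carcinoma cells also express. In growing WT 11 were at 0 and the sum was 417 to 520 TPM, and in growing KO only Cdh3 was at 0 and the sum was 778 to 933 TPM. Slurp1 correlated at 0.9 or more with 11 of the 14 tested mesothelium genes, 6 of 10 alveolar type 2 and 5 of 9 alveolar type 1 genes. It did so with 6 of 13 endothelial, 5 of 8 T and NK cell and 3 of 8 B and plasma cell genes, and with 4.01% of all genes tested. The same held for 2 of 11 fibroblast, 2 of 9 club and ciliated, 1 of 8 neutrophil, 1 of 6 erythroid, 0 of 12 macrophage and monocyte and 0 of 4 squamous genes. Some of these genes, among them Bnc1, Lrrn4, Slc34a2, Cldn18 and Tcf21, reached the filter only with the dormant KO libraries. The filter itself favours a high correlation for such genes, so nothing is read from these counts. None of 13 endothelial genes was at 0 in dormant KO or growing KO, and they summed to 1209 to 1213 TPM and 56.3 to 71.4 TPM. In dormant WT the endothelial sum was 16.2 to 166 TPM with Emcn at 0, and it was lowest in replicate 1, which lists Ly6c1 and Gpihbp1 at 0, whereas replicate 3, at 102 TPM, also lists Gpihbp1 at 0. In growing WT it was 14.2 to 18.4 TPM with Pecam1, Plvap, Tek and Vwf at 0.

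The macrophage and monocyte list, 14 genes of cells in which Ly6c2 is known, summed to 3627 to 3828 TPM in dormant KO and 1748 to 2149 TPM in dormant WT. None of the 14 was at 0 in either group, although Csf1r, Adgre1, Ccr2 and Ms4a6c were listed at 0 in dormant WT replicate 2. Much of the sum was Lyz2, with means of 2898 TPM in dormant KO and 1080 TPM in dormant WT. Without Lyz2 the other genes summed to 708 to 884 TPM and 699 to 996 TPM, which overlap, and 8 of the 14, C1qa, C1qb and C1qc among them, had a lower mean in dormant KO. The dormant WT sums were above those of growing cells, at 49.6 to 236 TPM. In dormant WT, Ly6c2 was listed at 0 and Ly6c1 at 0, 55.8 and 94.7 TPM, and the split between these copies is uncertain. The neutrophil list, with 11 of 12 genes in the table, summed to 4233 to 4560 TPM in dormant KO with Camp and Ltf at 0, and to 348 to 936 TPM in dormant WT with Camp, Ltf, Mmp8 and Ngp at 0. A list of 15 squamous epithelium genes summed to 42.7 to 91.9 TPM in dormant KO, within the 26.0 to 204 TPM of dormant WT, but the groups held different genes. Krt13 and Krt10 made up most of the dormant WT sum, where 9 of the 15 were at 0. Of these 9, Krt5, Krt14, Krt15, Krt6a, Sprr1a and Lor were above 0 in dormant KO, where Dsg3, Ivl, Krt1, Krt4 and Sprr3 were at 0. The B and plasma cell list, 10 genes of the lineage in which Ly6d is also known, summed to 464 to 491 TPM in dormant KO, 0.04 to 43.1 TPM in dormant WT with 6 genes at 0, and 7.21 to 120 TPM in growing libraries. The T and NK cell list of 12 genes summed to 330 to 448 TPM in dormant KO, 0 to 6.09 TPM in dormant WT with 7 genes at 0, and 0.62 to 33.1 TPM in growing libraries. Fibroblast genes (1907 to 2197 TPM), alveolar type 1 genes (1080 to 1265 TPM) and club and ciliated genes (1931 to 2464 TPM) were likewise highest in dormant KO, against 227 to 253, 43.2 to 87.0 and 8.59 to 280 TPM in dormant WT. The fibroblast sum was mostly Dcn and Inmt, and 4 of its 11 genes (Lum, Pdgfra, Pdgfrb and Gsn) had a lower mean in dormant KO. Single genes also led the club and ciliated sum (Scgb1a1, a mean of 1874 TPM) and the neutrophil sum (S100a8, 3160 TPM), and the rest of each list still exceeded its dormant WT sums in each dormant KO library. Genes of proliferation summed to 453 to 509 TPM in dormant KO, 515 to 1250 TPM in dormant WT and 1977 to 2458 TPM in growing libraries. The part of any of these cell types in the levels of Slurp1 and the other members was not tested.

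**Figure D4:**
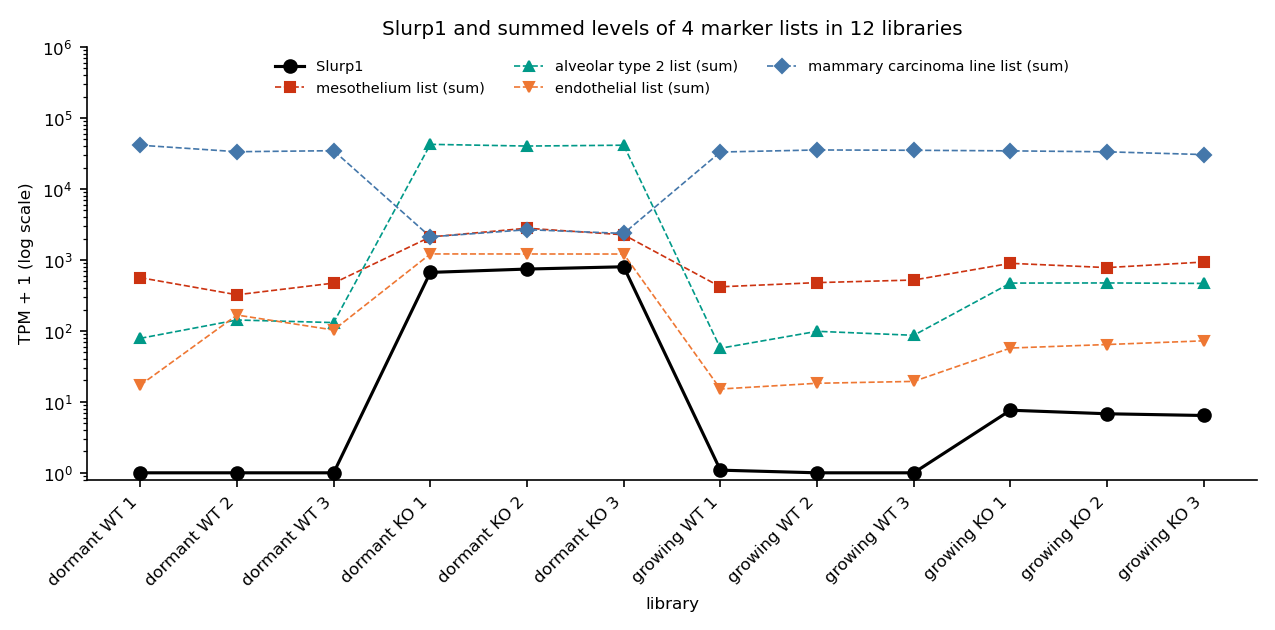
TPM + 1 on a log axis in each of the 12 libraries (horizontal axis) for Slurp1 and for the summed levels of the mesothelium, alveolar type 2, endothelial and mammary carcinoma line lists. In the 3 dormant KO libraries Slurp1 and the lung lists are at their highest and the carcinoma list, which is mostly Spp1, is at its lowest, and the growing KO libraries, at 5.42 to 6.62 TPM of Slurp1, lie above growing WT for Slurp1 and the lung lists.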

How the data were processed

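RNA from 12 libraries of sorted D2A1 cells was analysed, 3 in each of 4 groups taken from the sample titles. By the methods, the authors sorted small aliquots into lysis buffer and used the Smart-seq2 protocol, but a TruSeq mRNA kit is what the labels give. Reads were trimmed, aligned to mm10 with STAR and quantified with RSEM on a GENCODE release. The submitters' notes list cutadapt 1.18, STAR 2.5.2b and RSEM 1.3.3. The deposited values are TPM, normalized by the authors for gene length and library total, so depth is unknown and no interval for counting error is given. Use of strand is not given in the sources used here. The table has 30 more columns of single libraries that match none of the labelled samples, and they entered no step.

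The deposited TPM were transformed to log2(TPM + 1). Genes that reached 1 TPM in 3 or more libraries were tested (13002 of 25916 genes above 0). Because TPM are not counts, the authors' count model was not used. limma 3.58.1 (R 4.3.3, lmFit, eBayes with trend) was fitted to all 12 libraries with 1 mean per group, and 5 contrasts were tested, two-sided. A gene was called at an adjusted p of at most 0.05 and a difference of at least 1. The scripts were tested on simulated data. The log2(TPM + 1) scale understates the change of low genes. Where a whole group is listed at 0 no fold is given, except for the interaction values among the results flagged for a closer look. An exact permutation test of 3 against 3 cannot go below p = 0.1 and was not used. The alternatives were other pseudocounts, filters, scalings, array weights, fits of the compared groups only, a replicate block and leaving out each library. The members, lists and tests were chosen with earlier results of these data known. The genes named were all members, the 10 genes nearest to Slurp1 and 3 nearest to each other tested member, the fixed genes (Plau, Itgb1, Fn1, Klf4, Klf2, Ifngr1, Ifngr2) and, from the lists of other Ly6/uPAR genes and the uPA system, up to 3 called genes per direction and comparison whose groups did not overlap. A gene of the uPA list is counted with it but not reported here. Cell type lists were written from general knowledge. Ly6k, Ly6i, Gml, Cd59a and the cluster genes at 0 were named after their values were seen. Coordinates and coding sequences come from GENCODE M21 (GRCm38), and coding sequences were aligned with Biopython 1.88 (Python 3.11.15).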

Additional observations from a re-analysis of the deposited data

Results flagged for a closer look

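The dormant against growing difference of 11 named genes differed between hosts by the limma interaction on log2(TPM + 1), given as the value of KO hosts less that of WT hosts. Among the members these were Ly6c2 (5.61), Ly6d (4.19), Ly6e (3.20) and Ly6a (1.39, the smallest, adjusted p = 0.0412). Among the other Ly6/uPAR genes they were Lypd2 (6.66), Lypd8 (3.78) and Cd59b (3.45), and in the uPA and integrin list Serpine2 (2.63), Fn1 (-3.37), Itgb5 (-3.22) and Itgb1 (-1.67). Over 20 alternatives the call was lost in 15 for Serpine2, 13 for Ly6d, 10 for Ly6a, 9 for Lypd8, 8 for Itgb1 and 1 for Cd59b, and in none for Ly6c2, Ly6e, Lypd2, Fn1 and Itgb5. Lypd2, Lypd8, Cd59b and Serpine2 reached the filter only with the dormant KO libraries, so that they had to differ, and nothing is read from their calls. Values of Ly6c2, Ly6d, Lypd2, Lypd8 and Serpine2 rest on groups listed at 0 and depend on the pseudocount. Library batch is the same split as host, so the part of the batch cannot be told apart.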

How the results depend on the processing

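The count of members called between dormant groups was 4 or 5 in every setting tried. Between growing groups it was 2 when only the compared groups were fitted and 1 otherwise. For dormant against growing WT it was 3, 1 with array weights, and 2 to 4 over libraries left out. In that comparison Ly6c2 also lost its call with a pseudocount of 5 and with quantile normalization. Ly6a lost its call there with only the compared groups fitted. For dormant against growing KO the count was 4, and 3 to 5 in all settings. For the interaction it was 4, 2 with array weights, 2 with the replicate block, and 2 to 5 over libraries left out. The counts of 2 came without dormant KO replicates 1 or 3, growing WT replicate 2, or any growing KO replicate. Ly6d also lost its interaction call with a pseudocount of 0.1 and with no filter. Deviations from the group means correlated at -0.012 to 0.021 between libraries with the same number. Between libraries with different numbers r was -0.018 to 0.019. Values so near 0 cannot decide whether libraries with the same number came from the same mouse.

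The mean Slurp1 TPM became 908.3 in dormant KO and 4.87 in growing KO with median-ratio scaling, and 4.70 in growing KO and 0.22 in dormant WT with quantile normalization. The signs that turned belong to differences not called in the reported fit. Among them, Ly6c1 in WT hosts without dormant WT replicate 1, was called with the turned sign. For Plaur, dormant KO against dormant WT was 0.49 with median-ratio scaling and 0.16 with quantile normalization (-0.55 to 0.52 over libraries left out), dormant KO against growing KO 0.41 and 0.18, the interaction 0.23 with median-ratio scaling (-0.80 to 0.27), and dormant WT against growing WT -0.45 to 0.62. Ly6c1 in dormant against growing WT was 0.51 with a pseudocount of 5 and 0.15 with median-ratio scaling (-1.25 to 2.04). Plau between dormant groups was 0.29 with a pseudocount of 0.1 (-1.14 to 1.27). Over libraries left out, Ly6d between growing groups ran from -0.43 to 0.97 and Ifngr1 between dormant groups from -0.11 to 1.67. The causes were not tested. Median-ratio scaling moved the median difference of all genes between dormant groups from 0.17 to 0.50 and quantile normalization moved it to -0.14. Depth is unknown, so no detection limit was computed.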
